A study of Mus musculus with 9 samples.

Results

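The 10 prostaglandin synthesis and receptor genes Pla2g4a, Ptgs1, Ptgs2, Ptges, Ptges2, Ptges3, Ptger2, Ptger4, Hpgd and Ptgr1 were followed through RNA sequencing of 9 mouse duodenal organoid cultures. They were chosen by gene symbol for their known roles in the pathway, with earlier results of these data known. All 10 were found among the 46517 genes of the count tables. The organoids were grown from crypts of wild type C57BL/6J mice, dissociated to single cells and transduced with an adenovirus at 50 particles per cell. Of the 9 cultures, 3 received Ad-GFP (green fluorescent protein, the control), 3 received Ad-hHIF2 and 3 received Ad-hHIF1, with replicate numbers 1, 3 and 4 in each group. Ad-hHIF2 and Ad-hHIF1 carry human HIF alleles with prolines replaced by alanine, so that they escape degradation, and the GFP of the control virus is driven by a CMV promoter. All groups, the control included, were kept at 5% oxygen in L-WRN conditioned medium (a source of Wnt, R-spondin and Noggin) with Y27632, the TGF-β receptor inhibitor SB431542 and nicotinamide, and RNA was taken about 72 hours after transduction. The study calls the samples of a group biological replicates without naming the mice or organoid lines behind the 9 cultures, so the tests measure the spread between these samples, which may be technical.

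Prostaglandin E2 is made in 3 steps. Phospholipase A2 frees arachidonic acid from membranes, the cyclooxygenases encoded by Ptgs1 and Ptgs2 turn it into prostaglandin H2, and the prostaglandin E synthases convert that product. The ligand signals through E prostanoid receptors, several of which raise or lower cyclic AMP, and is inactivated by 15-hydroxyprostaglandin dehydrogenase (Hpgd) and then by prostaglandin reductases. In the intestine prostaglandin E2 is known for protecting the mucosa and for its part in crypt repair, with Ptgs1 regarded as the constitutive and Ptgs2 as the inducible cyclooxygenase. The hypoxia-inducible factors are transcription factors that bind a short core, ACGTG or GCGTG, within hypoxia response elements.

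Values are given as CPM, a gene's count relative to the total of its library, scaled with edgeR's TMM factors. The libraries held 21722618 to 51119041 counts, and the TMM factor was 1.31 in Ad-hHIF2 replicate 1 and 0.907 to 1.03 in the other libraries. As a check of the labels, reads assigned to mouse Epas1, which encodes HIF2 alpha, stood at 604 to 758 CPM in Ad-hHIF2 and at 1.47 to 3.07 CPM in the other 6 samples. Hif1a stood at 299 to 319 CPM in Ad-hHIF1 and at 198 to 251 CPM in the rest. This difference of Ad-hHIF1 from Ad-GFP was 1.41-fold and did not pass edgeR's test (edgeR adjusted p = 0.49). The labelled tissue was checked against epithelial markers. Krt8 was at 1022 to 1358 CPM, Krt18 at 1002 to 1200 CPM and Cdh1 at 204 to 352 CPM, whereas Epcam reached 3.80 CPM, Vil1 4.94 CPM and Cldn7 2.32 CPM at most. Of the enterocyte markers, Fabp1 reached 0.0273 CPM and Sis 0.219 CPM, and of the crypt markers Lgr5 reached 1.19 CPM and Olfm4 0.128 CPM. The enterocyte gene Apoa4 had 0 or 1 counts in each Ad-GFP sample, 0, 0 and 2 in Ad-hHIF1 and 76 to 143 counts (2.22 to 2.81 CPM) in Ad-hHIF2. Its values are a description, since it passed the filter on low counts only through Ad-hHIF2. The 4 other enterocyte markers tested did not pass edgeR's test in Ad-hHIF2 against Ad-GFP, where 29.5% of all genes tested passed. From the same lists, the enterocyte marker Krt20 was at 34.3 to 53.3 CPM and the crypt markers Lrig1 and Sox9 at 48.5 to 62.1 CPM and 2.26 to 11.9 CPM. Below 1 CPM in all 9 samples were 6 of 9 enterocyte and 3 of 7 crypt stem cell markers. The keratins and Cdh1 were thus abundant, but most markers that define duodenal enterocytes were at or near 0 and Epcam and Vil1 were low, so the markers do not by themselves establish the labelled tissue.

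The promoters of the 4 genes that changed most reliably under Ad-hHIF2 (Ptges, Ptgs1, Ptgs2 and Pla2g4a) are printed because HIF is a DNA-binding factor and the genes moved in opposite directions, 2 up and 2 down. The sequences are the RefSeq windows of build GRCm38.p6 from 250 bases before to 50 bases after a start site, read 5′ to 3′ on the strand of the gene. Capitals mark ACGTG or GCGTG on either strand. The Ptges window is chr2:30903248-30903547 (minus strand), the Ptgs1 window chr2:36230176-36230475 (plus strand), the Ptgs2 window chr1:150099781-150100080 (plus strand) and the Pla2g4a window, the first of 2 for this gene, chr1:149961241-149961540 (minus strand).
Ptges: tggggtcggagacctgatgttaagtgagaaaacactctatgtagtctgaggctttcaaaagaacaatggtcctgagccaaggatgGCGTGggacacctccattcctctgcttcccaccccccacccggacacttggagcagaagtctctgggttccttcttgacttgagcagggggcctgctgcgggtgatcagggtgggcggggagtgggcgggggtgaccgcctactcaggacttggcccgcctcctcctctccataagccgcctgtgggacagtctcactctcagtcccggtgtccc
Ptgs1: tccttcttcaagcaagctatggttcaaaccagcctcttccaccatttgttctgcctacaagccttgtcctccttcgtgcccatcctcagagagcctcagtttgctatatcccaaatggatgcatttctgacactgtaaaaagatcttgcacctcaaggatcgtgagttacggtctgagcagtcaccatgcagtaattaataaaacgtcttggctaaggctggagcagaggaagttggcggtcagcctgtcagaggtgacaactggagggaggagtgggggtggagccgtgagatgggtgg
Ptgs2: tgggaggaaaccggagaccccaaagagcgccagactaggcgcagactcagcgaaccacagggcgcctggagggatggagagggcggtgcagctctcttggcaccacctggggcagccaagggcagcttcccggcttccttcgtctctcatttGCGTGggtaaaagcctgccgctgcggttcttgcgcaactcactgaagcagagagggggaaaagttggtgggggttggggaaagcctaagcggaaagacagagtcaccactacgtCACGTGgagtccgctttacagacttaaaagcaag
Pla2g4a: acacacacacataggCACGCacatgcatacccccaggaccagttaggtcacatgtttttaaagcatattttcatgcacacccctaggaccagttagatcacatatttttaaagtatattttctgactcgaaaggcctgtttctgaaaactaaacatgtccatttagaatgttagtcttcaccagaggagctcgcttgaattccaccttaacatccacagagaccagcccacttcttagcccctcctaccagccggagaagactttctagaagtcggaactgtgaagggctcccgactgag

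The Ptges window held 1 core, a GCGTG that begins 165 bases before the start site. The Ptgs1 window held none. The Ptgs2 window held 3 matches, a GCGTG 98 bases before the start and 2 that overlap as the palindrome CACGTG shortly after the start, and the Pla2g4a window held 1 on the reverse strand. Among all 10 genes, 6 had at least 1 match in a window, and so did 46.7% of the 27025 gene symbols in the RefSeq table, so a match did not set these genes apart. Of all 32851 windows of 300 bases, 43.8% held either core, 19.6% held ACGTG and 32.4% held GCGTG. A match is a string of letters and not a measured binding site, and its absence says nothing of sites elsewhere. In the GENCODE M21 annotation of GRCm38, all 10 are protein-coding genes. Ptges covers chr2:30889471-30929863, so that its RefSeq start lies inside the GENCODE gene, Ptgs1 covers chr2:36230426-36252272, Ptgs2 covers chr1:150100031-150108227 and Pla2g4a covers chr1:149829618-149961290. Ptges2 covers chr2:32395896-32405772, Ptges3 chr10:128058954-128077272, Ptger2 chr14:44988195-45003820, Ptger4 chr15:5206661-5244187, Hpgd chr8:56294585-56321043 and Ptgr1 chr4:58965439-58987119. Ptgs1 shares 148 exonic bases with Gm43621, and Ptger4 shares 82 with Ttc33 and 1015 with the pseudogene Gm15937, while Ptger2 shares 246 with Gm17173 and 144 with Gm49364, all on the opposite strand. The strandedness of the libraries was not given in the sources used here, and reads of such partners cannot then be told apart.

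The first comparison asked which steps of the pathway differ when HIF2 is overexpressed. Under Ad-hHIF2, Ptges was 3.99-fold and Ptgs1 2.07-fold higher than under Ad-GFP, while Ptgs2 was 2.97-fold and Pla2g4a 1.70-fold lower. The receptor gene Ptger4 was 1.55-fold higher, a call lost in 7 of 15 alternative analyses, most of them leave-outs of 1 sample. Ptges2, Ptges3, Hpgd and Ptgr1 did not pass the test, and Ptger2 had too few counts to be tested. By edgeR's quasi-likelihood test with Benjamini-Hochberg adjustment over all 14987 genes tested, 5 of the 9 tested genes passed an adjusted p of 0.05, against a background of 29.5% of all genes tested. Of these, 3 were higher (background 15.9%) and 2 were lower (background 13.6%). A change of at least 2-fold in addition was met by Ptges, Ptgs1 and Ptgs2 (background 6.73%), but Ptgs1 fell short of 2-fold without Ad-GFP replicate 1 (log2 fold change 0.93), and Ptgs2 did not pass on log2(TPM + 0.1). In 6 of the 9 the 3 Ad-hHIF2 samples did not overlap the 3 Ad-GFP samples, as was so for 45.8% of all genes tested. The median log2 fold change of the 9 was -0.16, and that of all genes was -0.01.

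**Figure D1:**
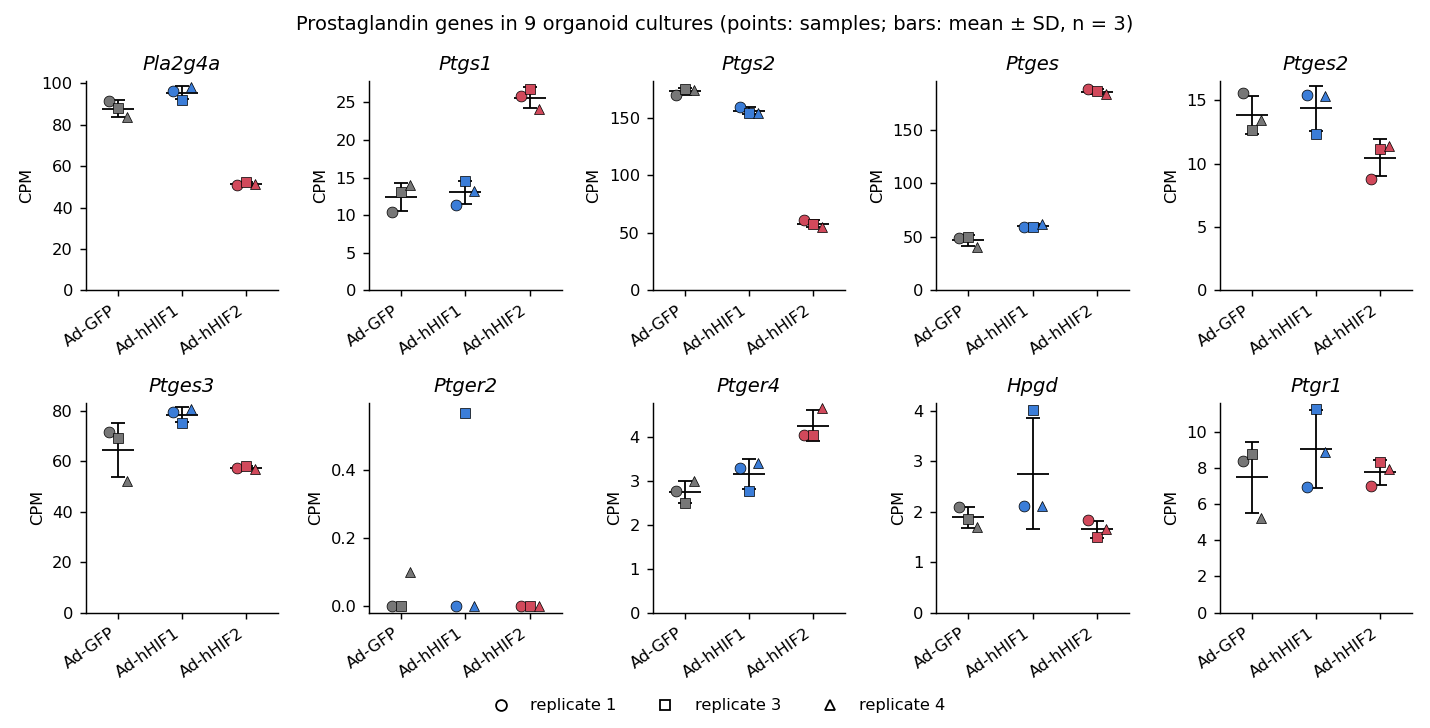
Normalised counts (CPM, y axes from 0) of the 10 prostaglandin genes in each of the 9 cultures, by virus. Points are samples, with the symbol giving the replicate number, and black bars are the mean ± SD of 3 samples (not drawn for Ptger2, which had counts in 2 samples). The Ad-hHIF2 samples stand apart from the other 6 for Ptges, Ptgs1, Ptgs2 and Pla2g4a, while Hpgd and Ptgr1 of Ad-hHIF2 overlap Ad-GFP.

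Pla2g4a encodes the cytosolic phospholipase A2 that frees arachidonic acid. It was at 91.6, 87.9 and 83.5 CPM in Ad-GFP, at 50.7, 52.4 and 51.2 CPM in Ad-hHIF2 and at 96.4, 91.9 and 98.1 CPM in Ad-hHIF1. All 3 Ad-hHIF2 samples lay below the other 6, which fell into a narrow band. Against Ad-GFP, Pla2g4a fell by 0.77 ± 0.07 (SE) on the log2 scale under Ad-hHIF2 (edgeR adjusted p = 0.00011, 95% interval -0.92 to -0.61). Under Ad-hHIF1 the log2 difference was 0.12 ± 0.07 (edgeR adjusted p = 0.65). In these bulk samples, fewer cells of a kind and less RNA per cell cannot be told apart.

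Ptgs1 was at 10.4, 13.03 and 14 CPM in Ad-GFP, at 25.9, 26.8 and 24.1 CPM in Ad-hHIF2 and at 11.4, 14.5 and 13.2 CPM in Ad-hHIF1. The Ad-hHIF2 samples were the highest 3 of the 9 with a wide gap to the rest, whereas Ad-hHIF1 and Ad-GFP overlapped. Ptgs1 rose under Ad-hHIF2 by 1.05 ± 0.11 (SE) on the log2 scale (edgeR adjusted p = 0.00029, 95% interval 0.79 to 1.31). Its log2 difference under Ad-hHIF1 was 0.07 ± 0.15 (edgeR adjusted p = 0.91). Its expected count was not a whole number in 7 of the 9 samples, so some of its reads were shared with other features.

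Ptgs2 moved the other way. Its levels were 169.7, 175.0 and 174.8 CPM in Ad-GFP, 61.3, 57.9 and 55.1 CPM in Ad-hHIF2 and 159.7, 154.1 and 154.6 CPM in Ad-hHIF1. All 3 Ad-hHIF2 samples were far below the other 6, which lay close together. Ptgs2 fell by 1.57 ± 0.07 (SE) on the log2 scale under Ad-hHIF2 (edgeR adjusted p = 2.37e-06, 95% interval -1.74 to -1.41). The 3 Ad-hHIF1 samples also lay below the 3 Ad-GFP samples, by a log2 difference of -0.15 ± 0.07 that did not pass the test (edgeR adjusted p = 0.59).

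The pair of cyclooxygenases was then compared within each sample on a scale per length, as CPM per kilobase of effective transcript length. The Ptgs2 level was 9.22, 6.48 and 6.89 times the Ptgs1 level in Ad-GFP and 7.14, 6.17 and 6.37 times in Ad-hHIF1. In Ad-hHIF2 it was 1.28, 1.12 and 1.199 times. Both transcripts were thus at nearly equal level in Ad-hHIF2, and the ratio did not overlap between Ad-hHIF2 and the other groups. Ptgs1 made up 11.9 ± 1.90% (SD, n = 3) of the summed cyclooxygenase level in Ad-GFP, 45.6 ± 1.66% in Ad-hHIF2 and 13.3 ± 0.870% in Ad-hHIF1. The sum itself was 45.6 ± 1.72 CPM per kilobase in Ad-GFP, 24.7 ± 1.13 in Ad-hHIF2 and 41.8 ± 0.405 in Ad-hHIF1.

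Markers of other cell types were read beside these transcripts. Ptgs1 is a known transcript of tuft cells. Of 18 tuft cell markers, 5 were tested and 0 passed edgeR's test in Ad-hHIF2 against Ad-GFP (background 29.5%). None of the 5 had an unadjusted edgeR p below 0.05, whereas 6175 of all 14987 genes tested did. Il25, Chat and Gnat3 had a count of 0 in all 9 samples. Pou2f3 reached 0.139 CPM and Gfi1b 0.150 CPM, while Dclk1 was at 1.05 to 2.58 CPM. The summed tuft cell list ranged from 58.3 to 60.2 CPM in Ad-GFP, 51.4 to 59.4 CPM in Ad-hHIF2 and 64.4 to 66.0 CPM in Ad-hHIF1, most of it from Avil at 44.1 to 56.2 CPM. Their part in the rise of Ptgs1 was not tested. Matk, from the same list, was higher in Ad-hHIF1, at 2.28 to 2.76 CPM, than in Ad-hHIF2, at 0.804 to 1.23 CPM (edgeR adjusted p = 0.016), the 1 gene of 5 to pass there (20%, against 25.8%). Of 12 immune cell markers, 4 were tested. Cd14 was lower under Ad-hHIF2, at 6.48, 7.10 and 9.95 CPM in Ad-GFP against 3.27, 3.98 and 2.85 CPM (edgeR adjusted p = 0.0032), and was the 1 gene to pass of the 3 besides Ptprc (background 29.5%). Ptprc was at 0.492, 0.665 and 1.15 CPM in Ad-GFP and at 0.0686, 0.0589 and 0 CPM in Ad-hHIF2, which is given as a description, since it passed the count filter only through Ad-GFP. The summed immune list ranged from 16.9 to 26.0 CPM in Ad-GFP, 15.6 to 18.7 CPM in Ad-hHIF2 and 14.4 to 20.5 CPM in Ad-hHIF1, with Adgre1 at 0.200 CPM and Tyrobp at 0.219 CPM at most. Against Ad-hHIF1, Cd14 was 2.11-fold lower (edgeR adjusted p = 0.0074) and Cd68 1.52-fold higher (edgeR adjusted p = 0.037) in Ad-hHIF2, that is 2 of the same 3 genes (background 25.8%), while Ptprc had 5 to 12 counts in Ad-hHIF1 and 0 to 3 in Ad-hHIF2. Of 10 fibroblast markers, 7 were tested and 0 passed edgeR's test (background 29.5%). An unadjusted edgeR p below 0.05 was found for 2 of the 7, and for 6175 of all 14987 genes tested. Groups did not overlap for 2 of the 7 (background 45.8%). The median log2 difference of the 7 was -0.72, against -0.01 for all genes. The summed list ranged from 13.2 to 20.5 CPM in Ad-GFP and 10.5 to 13.6 CPM in Ad-hHIF2, with Col3a1 at 2.69 to 6.83 CPM and Pdgfra at 2.84 to 4.24 CPM over the 9 samples. The part of the immune and fibroblast markers in the fall of Ptgs2 and Pla2g4a was not tested. The 1 tested endothelial marker of 6, Kdr, did not pass (log2 difference -1.01, edgeR adjusted p = 0.10). Of the 8 epithelial markers, all tested, Elf3 and Cdh1 rose and Epcam fell (37.5% passed, against 29.5%). Epcam passed only narrowly (edgeR adjusted p = 0.047), on 49 to 139 counts in Ad-GFP and 53 to 97 in Ad-hHIF2. Krt19 was 1.29-fold lower under Ad-hHIF2 than under Ad-hHIF1 (edgeR adjusted p = 0.018). Of 7 crypt stem cell markers, 4 were tested and 1 passed (25%, against the 29.5% of all genes tested), namely Sox9, which was lower, at 6.29 to 11.9 CPM in Ad-GFP and 2.26 to 2.94 CPM in Ad-hHIF2, while the median log2 difference of the 4 was 0.52. Against Ad-hHIF1, Sox9 was again lower, with a log2 difference of -1.50 (edgeR adjusted p = 0.0017), and the 3 others tested, besides Ascl2, did not pass (background 25.8%). Ascl2, a stem cell transcription factor, had 3, 0 and 0 counts in Ad-hHIF2 and 24, 15 and 19 in Ad-hHIF1, and its values are a description, since it passed the count filter only through Ad-hHIF1.

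Ptges encodes the microsomal, inducible prostaglandin E synthase. It was at 49.4, 49.8 and 40.9 CPM in Ad-GFP, at 188, 186 and 183 CPM in Ad-hHIF2 and at 59.7, 59.6 and 62.1 CPM in Ad-hHIF1. The 3 groups did not overlap, with Ad-hHIF2 far above the others and Ad-hHIF1 slightly above Ad-GFP. Ptges rose under Ad-hHIF2 by 1.995 ± 0.092 (SE) on the log2 scale (edgeR adjusted p = 2.3e-06, 95% interval 1.79 to 2.20), which placed it 142nd from the top of the 14987 genes tested. Under Ad-hHIF1 the log2 difference was 0.37 ± 0.09, or 1.29-fold (unadjusted p = 0.0032, edgeR adjusted p = 0.49). Ptges was the gene among the 10 for which the tool decided the Ad-hHIF1 call, since DESeq2 gave an adjusted p of 0.017.

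The remaining synthases stayed closer to the control. Ptges2 encodes a membrane-associated prostaglandin E synthase. It was at 15.5, 12.6 and 13.4 CPM in Ad-GFP, at 8.76, 11.2 and 11.4 CPM in Ad-hHIF2 and at 15.4, 12.3 and 15.3 CPM in Ad-hHIF1. All Ad-hHIF2 samples were below all others, but the spread within groups was wide relative to the difference. The log2 difference of Ad-hHIF2 from Ad-GFP was -0.41 ± 0.14 (edgeR adjusted p = 0.053). It passed in 4 of 15 alternative analyses, with an adjusted p of 0.019 at the lowest, and turned positive on both TPM scales.

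Ptges3 encodes the cytosolic synthase, also known as the Hsp90 co-chaperone p23. It was at 71.7, 69.4 and 52.0 CPM in Ad-GFP, at 57.4, 58.1 and 56.9 CPM in Ad-hHIF2 and at 79.8, 75.1 and 80.9 CPM in Ad-hHIF1. Ad-GFP replicate 4 was the lowest of the 9 samples, and because of it Ad-hHIF2 and Ad-GFP overlapped. The log2 difference of Ad-hHIF2 from Ad-GFP was -0.16 ± 0.11 (edgeR adjusted p = 0.32), and without Ad-GFP replicate 4 it was -0.28 (edgeR adjusted p = 0.017). Under Ad-hHIF1 it was 0.29 ± 0.12 (edgeR adjusted p = 0.58).

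On the scale per length, Ptges supplied 22.7, 24.0 and 24.4% of the summed level of the 3 synthases in Ad-GFP and 24.9, 25.5 and 25.8% in Ad-hHIF1. In Ad-hHIF2 it supplied 59.1, 57.6 and 57.6%. Of Ptges and Ptges2 alone, leaving out Ptges3, Ptges supplied 59.0 ± 4.51% (SD, n = 3) in Ad-GFP, 86.7 ± 1.26% in Ad-hHIF2 and 63.3 ± 1.74% in Ad-hHIF1. The Ptges share was thus higher in Ad-hHIF2 on either sum, and it was the larger part of the sum in Ad-GFP only where Ptges3 was left out. Ptges3, the leading synthase transcript of Ad-GFP, had a level of 30.9 CPM per kilobase in Ad-hHIF2 beside 34.8 in Ad-GFP. The ratio of Ptges to Ptgs2 per length, which sets the synthase against the inducible cyclooxygenase, was 0.384, 0.360 and 0.288 in Ad-GFP, 0.487, 0.477 and 0.529 in Ad-hHIF1 and 3.90, 4.05 and 4.21 in Ad-hHIF2.

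**Figure D2:**
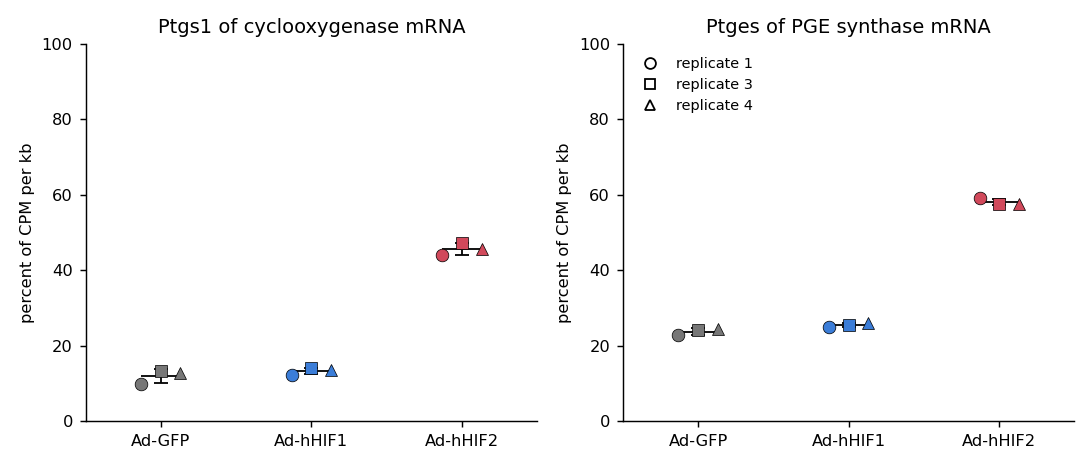
Share of Ptgs1 in the summed level of Ptgs1 and Ptgs2 (left) and share of Ptges in the summed level of Ptges, Ptges2 and Ptges3 (right), in percent of CPM per kilobase, by virus. Points are samples and bars are the mean ± SD of 3. Ad-hHIF2 stands at 45.6% and 58.1%, against 11.9% and 23.7% in Ad-GFP, and Ad-hHIF1 lies near Ad-GFP in both.

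The order of levels per length changed with it. In Ad-GFP the order was Ptgs2, Pla2g4a, Ptges3, Ptges, Ptges2, Ptgs1, Ptgr1, Hpgd, Ptger4 and Ptger2. Means ran from 40.1 CPM per kilobase for Ptgs2 to 0.860 for Ptger4 and 0.0094 for the barely detected Ptger2. In that order the neighbours Ptgs2 and Pla2g4a, Pla2g4a and Ptges3, and Ptges and Ptges2 overlapped between samples. In Ad-hHIF2 the order was Ptges (54.5 CPM per kilobase), Ptges3 (30.9), Pla2g4a (20.3), Ptgs2 (13.5), Ptgs1 (11.3), Ptges2 (8.39), Ptgr1 (3.604), Ptger4 (1.34) and Hpgd (1.05), and no neighbours overlapped. In Ad-hHIF1 the order began with Ptges3 (42.5), Pla2g4a (37.4) and Ptgs2 (36.3). Pla2g4a overlapped its neighbours Ptges3 and Ptgs2, which did not overlap each other. Ptges (18.05) followed, and the order ended as in Ad-GFP, with Ptgs1 and Ptgr1 overlapping.

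Ptger4 encodes the EP4 receptor, which raises cyclic AMP. It was at 2.76, 2.49 and 3.00 CPM in Ad-GFP, at 4.05, 4.04 and 4.66 CPM in Ad-hHIF2 and at 3.29, 2.76 and 3.40 CPM in Ad-hHIF1. The Ad-hHIF2 samples were the highest 3, though the values rest on 60 to 206 counts per library. Ptger4 rose under Ad-hHIF2 by 0.63 ± 0.18 (SE) on the log2 scale (edgeR adjusted p = 0.028, 95% interval 0.23 to 1.04). This call was lost when Ad-GFP replicate 1 or 3 or any Ad-hHIF2 sample was left out, with a log2 fold change of 0.56 to 0.70 over all leave-outs and an adjusted p of 0.0865 at the highest. It was also lost by limma on log2(TPM + 1) and log2(TPM + 0.1) (adjusted p = 0.318 and 0.148).

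Ptger2 encodes the EP2 receptor, also coupled to cyclic AMP, and was barely detected. It had 2 counts in Ad-GFP replicate 4, 13 counts in Ad-hHIF1 replicate 3 and 0 in the other 7 samples. In the 3 Ad-hHIF2 samples a count of 0 allows a level of up to 0.0589 to 0.0970 CPM, taken as 3 counts and covering counting error only. A difference in Ptger2 was not detectable at this depth. The 13 counts came from a single library, Ad-hHIF1 replicate 3, which also held the highest Hpgd and Ptgr1 of the 9.

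Hpgd and Ptgr1, the breakdown enzymes among the 10 genes, did not pass in any comparison. Hpgd, the dehydrogenase that begins inactivation, was at 2.10, 1.86 and 1.70 CPM in Ad-GFP, at 1.83, 1.49 and 1.65 CPM in Ad-hHIF2 and at 2.12, 4.03 and 2.12 CPM in Ad-hHIF1. Ad-hHIF1 replicate 3 was the highest of the 9 samples, and the other 8 lay between 1.49 and 2.12 CPM. The log2 difference of Ad-hHIF2 from Ad-GFP was -0.19, with a 95% interval of -0.75 to 0.37 (edgeR adjusted p = 0.60), so changes within that interval remain possible. Ptgr1 encodes prostaglandin reductase, which acts on the product of Hpgd. It was at 8.42, 8.79 and 5.25 CPM in Ad-GFP, at 7.02, 8.36 and 7.96 CPM in Ad-hHIF2 and at 6.98, 11.3 and 8.90 CPM in Ad-hHIF1. The groups overlapped, and the log2 difference under Ad-hHIF2 was 0.05, with a 95% interval of -0.38 to 0.47 (edgeR adjusted p = 0.88).

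**Figure D3:**
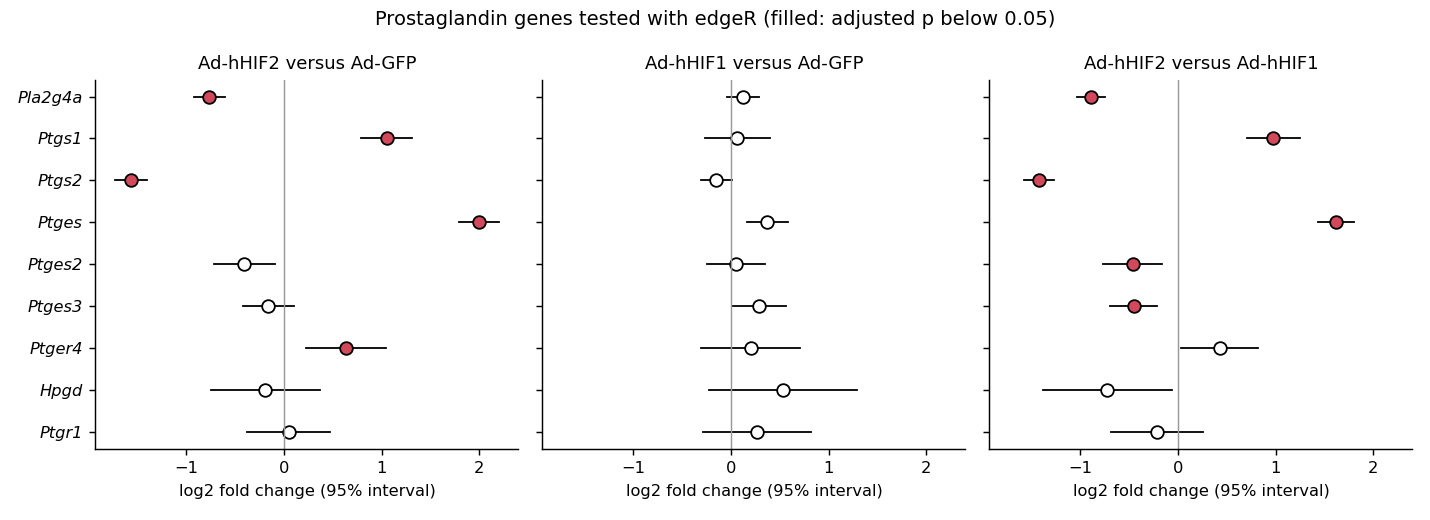
Log2 fold change (x axis) of the 9 tested prostaglandin genes in the 3 comparisons, with 95% intervals from edgeR's quasi-likelihood test; filled points have an adjusted p below 0.05. Filled points number 5 of 9 for Ad-hHIF2 versus Ad-GFP, 0 for Ad-hHIF1 versus Ad-GFP and 6 for Ad-hHIF2 versus Ad-hHIF1.

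The second comparison asked the same of HIF1. No gene of the pathway passed in Ad-hHIF1 against Ad-GFP. The background of all 15233 genes tested was 0% by edgeR, with a smallest adjusted p of 0.079. Hif1a itself did not pass either, so a lack of calls here does not show a lack of effect. Without adjustment, 1308 genes had a p below 0.05, among them Ptges and Ptges3. DESeq2 passed 144 genes, 1 of them among the prostaglandin genes, namely Ptges. In 5 of the 9 tested genes the Ad-hHIF1 samples did not overlap the Ad-GFP samples (background 17.4%): Pla2g4a, Ptges, Ptges3 and Hpgd lay above and Ptgs2 below. The largest of these differences in log2 terms was that of Hpgd, 0.53 with a 95% interval of -0.23 to 1.29 (edgeR adjusted p = 0.67). Without Ad-hHIF1 replicate 3 it was 0.17. The groups were barely apart for Pla2g4a and Hpgd. The highest Ad-GFP and lowest Ad-hHIF1 samples were at 91.6 and 91.9 CPM for Pla2g4a and at 2.10 and 2.12 CPM for Hpgd. The median of the 9 was 0.20 on the log2 scale, against 0.00 for all genes. Ad-hHIF1 shares its controls with the first comparison.

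The third comparison set the HIFs against each other in a fit of all 9 samples. Ptges was 3.07-fold and Ptgs1 1.97-fold higher under Ad-hHIF2 than under Ad-hHIF1, and Ptgs2 was 2.69-fold and Pla2g4a 1.86-fold lower. Ptges2 and Ptges3 were lower by 1.38-fold and 1.37-fold. By edgeR, 6 of the 9 tested genes passed (background 25.8% of 15556 genes), 2 higher (background 13.7%) and 4 lower (background 12%). Without Ad-hHIF2 replicate 1, 2594 of 16450 genes passed in place of 4008 of 15556, and 5 of the 9. Ptges and Ptgs2 also passed the 2-fold threshold (background 6.11%). The samples did not overlap in 8 of the 9, all but Ptgr1 (background 41.8%). The median of the 9 was -0.45 on the log2 scale, against -0.01 for all genes.

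The difference between the HIFs in Ptges was 1.62 ± 0.08 on the log2 scale (edgeR adjusted p = 7.22e-07) and that in Ptgs1 0.98 ± 0.12 (edgeR adjusted p = 0.00030). For Ptgs2 it was -1.43 ± 0.07 (edgeR adjusted p = 3.85e-07) and for Pla2g4a -0.89 ± 0.07 (edgeR adjusted p = 6.98e-06). These 4 genes thus differed between the Ad-hHIF2 and Ad-hHIF1 samples and not only from Ad-GFP. Against Ad-GFP, reads assigned to Epas1 were 388-fold higher under Ad-hHIF2, and those of Hif1a 1.41-fold higher under Ad-hHIF1. The kind of HIF and its level therefore cannot be told apart in this contrast. For Ptges2 the difference was -0.46 ± 0.14 (edgeR adjusted p = 0.030), and it was lost without Ad-hHIF2 replicate 1 (adjusted p = 0.126) and without Ad-hHIF1 replicate 1 (0.084) or replicate 4 (0.094). For Ptges3 it was -0.45 ± 0.11 (edgeR adjusted p = 0.012), and without Ad-hHIF2 replicate 4 the adjusted p was 0.051. Ptger4 differed by 0.43 ± 0.18, with a 95% interval of 0.03 to 0.82 (edgeR adjusted p = 0.11), and did not pass. Hpgd had a log2 difference of -0.72, with a 95% interval of -1.38 to -0.07 (edgeR adjusted p = 0.10), and did not pass. Ad-hHIF1 replicate 3 was its highest sample, and the difference ranged from -0.90 to -0.37 over the leave-outs of 1 sample.

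The other genes of the eicosanoid pathway were read from lists of their own. Of 20 phospholipase A2 genes, 7 were tested, and 2 rose and 1 fell under Ad-hHIF2 against Ad-GFP (42.9% passed, against the 29.5% of all genes tested). Pla2g6, a calcium-independent phospholipase A2, was at 8.70 to 9.45 CPM in Ad-GFP and 13.8 to 15.1 CPM in Ad-hHIF2, a rise of 0.67 ± 0.09 on the log2 scale (edgeR adjusted p = 0.0010). Pla2g15, the lysosomal enzyme, rose by 0.47 ± 0.10 (edgeR adjusted p = 0.0080). Pla2g12a, a secreted enzyme, fell by 0.56 ± 0.11 (edgeR adjusted p = 0.0062). The triglyceride lipase Pnpla2 had a log2 difference of -0.40 (edgeR adjusted p = 0.082), and -0.61 without Ad-hHIF2 replicate 1 (edgeR adjusted p = 0.0058), its highest Ad-hHIF2 sample. It also passed with a replicate block (edgeR adjusted p = 0.025), without the filter on low counts (edgeR adjusted p = 0.0064) and by DESeq2 (adjusted p = 0.048). Over the leave-outs its difference was as small as -0.28 and its edgeR adjusted p as high as 0.24. Against Ad-hHIF1, Pla2g6 and Pla2g15 were higher and Pla2g12a and Pnpla2 lower under Ad-hHIF2, 4 of the 7 (57.1% passed, against 25.8%), with edgeR adjusted p of 0.00035, 0.0097, 0.0030 and 0.036.

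Among 9 genes for other prostanoid synthases, 5 were tested, 2 rose and 1 fell (60% passed, against 29.5%). The carbonyl reductases Cbr1 and Cbr3, of which Cbr1 can reduce prostaglandin E2 to F2 alpha, rose by 0.85 ± 0.15 (edgeR adjusted p = 0.0036) and 0.87 ± 0.17 (edgeR adjusted p = 0.0064) on the log2 scale. Cbr1 was at 22.2, 21.5 and 14.2 CPM in Ad-GFP, at 33.1, 37.6 and 33.8 CPM in Ad-hHIF2 and at 23.8, 22.4 and 25.3 CPM in Ad-hHIF1. Akr1b3, an aldose reductase with prostaglandin F synthase activity, fell by 0.57 ± 0.11 (edgeR adjusted p = 0.0065). The other 6 genes of the list, among them those for thromboxane and prostacyclin synthase, stayed below 1 CPM in all samples. Of 7 further prostanoid receptors, only Ptger1, which encodes EP1, was tested. It was at 7.87 to 8.25 CPM in Ad-GFP and 9.46 to 10.3 CPM in Ad-hHIF2, a rise of 0.30 ± 0.10 (edgeR adjusted p = 0.044) that was lost in 12 of 15 alternative analyses, among them every leave-out except that of Ad-GFP replicate 4. The remaining 6 receptors of the list stayed below 1 CPM in all samples.

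All 8 genes for prostaglandin transport and further breakdown were tested, and 1 rose and 3 fell (50% passed, against 29.5%). Ptgr2, a reductase for 15-keto-prostaglandin E2, was at 12.7, 10.3 and 8.998 CPM in Ad-GFP, at 15.8, 18.03 and 16.1 CPM in Ad-hHIF2 and at 16.3, 16.6 and 14.4 CPM in Ad-hHIF1. Both HIF groups lay above the control, by 0.64 ± 0.13 under Ad-hHIF2 (edgeR adjusted p = 0.0075) and 0.56 ± 0.14 under Ad-hHIF1 (edgeR adjusted p = 0.49), and they did not differ from each other beyond a log2 interval of -0.19 to 0.35. Abcc4, a prostaglandin exporter, fell from 61.1 ± 2.45 to 45.0 ± 0.907 CPM (SD, n = 3; edgeR adjusted p = 0.0017). The uptake carrier Slco2a1 had a log2 difference of 0.23 ± 0.11 from Ad-GFP (edgeR adjusted p = 0.14, or 0.017 without Ad-GFP replicate 4) and was 1.33-fold higher than in Ad-hHIF1 (edgeR adjusted p = 0.012). Slco3a1, another carrier, fell by 1.23 ± 0.33 from a level of 1.39 CPM (edgeR adjusted p = 0.022) and Aldh1a3, an aldehyde dehydrogenase, by 0.72 ± 0.18 (edgeR adjusted p = 0.018), and each call was lost in 4 of 6 leave-outs. For Slco3a1 these were Ad-GFP replicate 3 and each Ad-hHIF2 sample, and for Aldh1a3 Ad-GFP replicate 1 and each Ad-hHIF2 sample, with adjusted p up to 0.087. The call for Slco3a1 was also lost without the filter on low counts (edgeR adjusted p = 0.053).

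The lipoxygenase branch, which uses the same arachidonic acid, had 6 tested genes of 18. Alox12, the platelet-type 12-lipoxygenase, had 0 to 7 counts per library in Ad-GFP and 47 to 80 in Ad-hHIF2, that is 0.0273, 0.194 and 0 CPM against 1.17, 1.57 and 1.52 CPM, and 0 to 8 counts in Ad-hHIF1. It passed the filter on low counts only through the Ad-hHIF2 samples, so its values are given as a description, and its level stayed low even there. Of the other 5 tested genes, 1 rose and 2 fell (background 29.5%). Lta4h, which makes leukotriene B4, rose by 0.34 ± 0.08 (edgeR adjusted p = 0.014), a call lost without Ad-GFP replicate 3 or Ad-hHIF2 replicate 1 (adjusted p = 0.061 and 0.053). Mgst3 fell by 0.38 ± 0.11 (edgeR adjusted p = 0.033), lost without Ad-GFP replicate 1 or 3 or Ad-hHIF2 replicate 1 or 4 (adjusted p up to 0.108). Alox8 fell by 1.23 ± 0.30 (edgeR adjusted p = 0.016) from 2.47 to 1.05 CPM, lost without Ad-GFP replicate 3 or Ad-hHIF2 replicate 1 or 3 (adjusted p up to 0.068). Mgst2, a glutathione transferase of the leukotriene branch, had a log2 difference of 0.13 from Ad-GFP (edgeR adjusted p = 0.28) and was 1.31-fold higher than in Ad-hHIF1 (edgeR adjusted p = 0.010).

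Transcripts that cyclic AMP is known to induce were examined because EP2 and EP4 signal through it. Of 14 such genes, 12 were tested, and 5 rose and 2 fell under Ad-hHIF2 (58.3% passed, against the 29.5% of all genes). Rgs2, a regulator of G protein signalling, was at 0.792, 0.333 and 0.600 CPM in Ad-GFP and at 4.02, 4.39 and 4.17 CPM in Ad-hHIF2, a rise of 2.87 ± 0.31 (edgeR adjusted p = 0.00030). Pde4d, a cyclic AMP phosphodiesterase, was at 20.2, 18.3 and 22.8 CPM against 53.1, 49.9 and 51.4 CPM, a rise of 1.34 ± 0.09 (edgeR adjusted p = 2.05e-05). Fosl2 rose by 1.08 ± 0.08 (edgeR adjusted p = 3.64e-05). In contrast, the immediate early genes Nr4a1 and Fos fell, by 0.99 ± 0.21 (edgeR adjusted p = 0.0097) and 0.41 ± 0.10 (edgeR adjusted p = 0.017), the latter lost without Ad-GFP replicate 1 or Ad-hHIF2 replicate 1 or 3 (adjusted p up to 0.074). Areg, which encodes amphiregulin, had a log2 difference of -0.20 (edgeR adjusted p = 0.053) and was 1.45-fold lower than in Ad-hHIF1 (edgeR adjusted p = 0.00045). The list thus held both rises and falls. At 2-fold or more, 3 of the 12 rose and 0 fell (background 6.73%). The median log2 difference of the 12 was 0.28, against -0.01 for all genes. Many other signals also act on these genes, and the part of cyclic AMP was not tested.

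**Figure D4:**
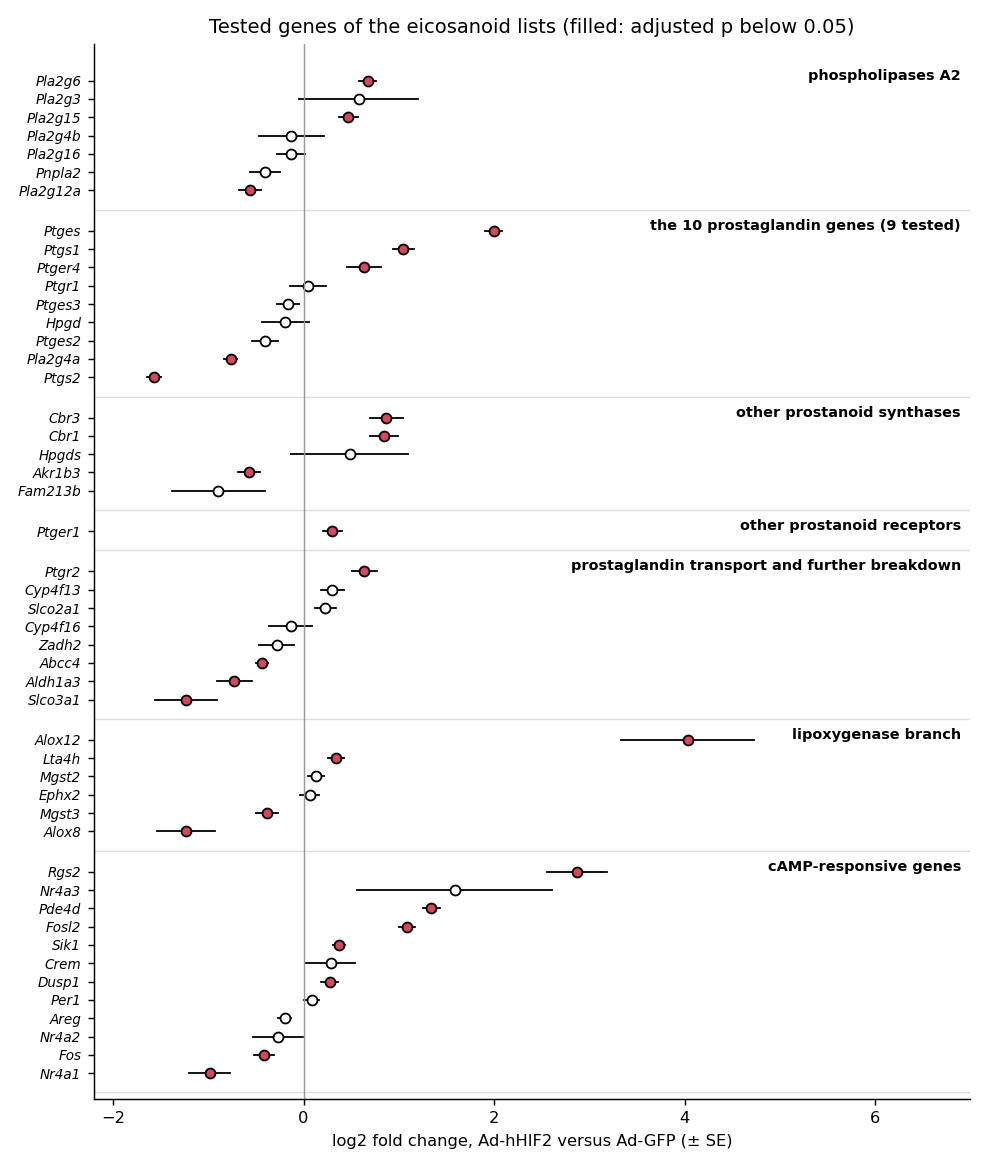
Log2 fold change ± SE (x axis, Ad-hHIF2 versus Ad-GFP) of every tested gene of the prostaglandin and other eicosanoid lists and of the list of cyclic AMP-responsive genes, grouped by list; filled points have an edgeR adjusted p below 0.05. Each list with more than 1 tested gene has points on both sides of 0, with Alox12, which passed the count filter only through Ad-hHIF2, at 4.03 (3.57 to 6.09 with 1 sample left out) and Rgs2 at 2.87 at the high end and Ptgs2 at -1.57 at the low end.

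The calls for the 4 leading genes were examined under 15 alternative analyses of Ad-hHIF2 against Ad-GFP. Over the 6 fits that drop 1 sample each, the largest edgeR adjusted p was 5.31e-05 for Ptges, 7.18e-05 for Ptgs2, 0.0024 for Ptgs1 and 0.0015 for Pla2g4a. Every alternative kept the direction of these 4. Their calls were lost only on the scale of TPM, which divides each count by transcript length and by the library's sum of such values. By limma on log2(TPM + 1) all 4 were lost, with adjusted p of 0.144 to 0.351. By limma on log2(TPM + 0.1) Ptgs2 and Pla2g4a were lost. Ad-hHIF2 replicate 1 stood apart on this scale, with Ptges at 13.7, 7.32 and 7.47 TPM in Ad-hHIF2 but at 188, 186 and 183 CPM. The part of that library in the lost calls was not tested. Among the genes of the other lists, the falls of Pla2g12a, Akr1b3, Slco3a1, Aldh1a3, Abcc4, Mgst3 and Fos were lost under total counts and on both TPM scales. For Abcc4, Mgst3 and Fos the log2 difference on the TPM scales was positive. The rises of Pla2g6, Pla2g15, Cbr3, Ptger1, Ptgr2 and Lta4h and the falls of Alox8 and Nr4a1 were lost on both TPM scales, and the rises of Cbr1, Rgs2, Pde4d and Fosl2 on log2(TPM + 1). Alox8 was also lost in a single fit of all 9 samples (edgeR adjusted p = 0.11). Under total counts without TMM factors the log2 fold change of all genes had a median of 0.24 in place of -0.01, and the share of higher genes among those called at 2-fold or more was 64.5% in place of 43.1%.

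**Figure D5:**
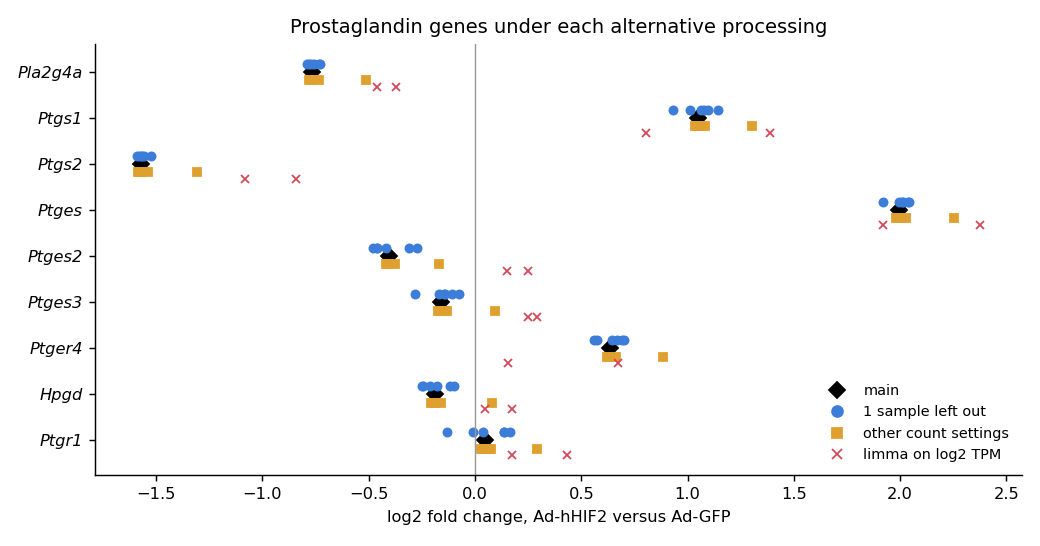
Log2 fold change (x axis, Ad-hHIF2 versus Ad-GFP) of the 9 tested prostaglandin genes in the main analysis (black diamonds) and under each alternative: 1 sample left out (blue circles), other filters, scalings, tests and fits on counts (orange squares) and limma on log2 TPM (red crosses). Ptges, Ptgs1 and Ptger4 stay above 0 and Ptgs2 and Pla2g4a below 0 throughout, whereas Ptges2, Ptges3, Hpgd and Ptgr1 fall on both sides.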

How the data were processed

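RNA sequencing covered 9 cultures in 3 groups of 3. The authors removed low-quality reads and estimated the deposited expected counts with RSEM, where a read matching more than 1 transcript is split between them. The deposited tables also hold TPM, which RSEM computed from those expected counts and effective lengths. The aligner, genome build, annotation and strandedness were not given in the sources used here.

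The expected counts were rounded, filtered with filterByExpr, scaled by TMM and given to the quasi-likelihood test of edgeR 4.0.16 in R 4.3.3, each HIF against Ad-GFP in its own 6 samples and the HIFs against each other in all 9. P-values were Benjamini-Hochberg adjusted over all genes tested. A gene passed at an adjusted p below 0.05. Standard errors came from the F statistic. The fits were tested on simulated data. Levels between genes are CPM per kilobase of RSEM's effective length in each sample, which differs between samples.

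The 10 genes and the lists were chosen with earlier results of these data known. Of each other list, genes passing in Ad-hHIF2 versus Ad-GFP or versus Ad-hHIF1 were named, up to 3 per direction by fold change in Ad-hHIF2 versus Ad-GFP. Of a list with none, the 2 tested genes with the highest mean CPM were named. The alternatives were DESeq2 1.42.0, scaling by median ratios or by library totals alone, testing all genes or those with 10 or more counts in each sample, limma 3.58.1 on log2(TPM + 1) and log2(TPM + 0.1), other samples in the fit, a replicate block and each sample left out in turn. Cell type markers were not examined under these alternatives. Genes of the other lists were examined under them only in Ad-hHIF2 versus Ad-GFP. Library totals were 21722618 to 51119041 counts. With 3 against 3 samples a two-sided exact permutation test cannot go below p = 0.1, so it was not used. The authors' own comparison tables were not used, and protein and prostaglandin levels were not analysed here.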

Additional observations from a re-analysis of the deposited data

How the results depend on the processing

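For Ad-hHIF2 versus Ad-GFP, 1009 genes were called at 2-fold or more, with 3 on log2(TPM + 1) and 423 on log2(TPM + 0.1). At any fold, 5 of the 9 tested prostaglandin genes passed, among 4416 of 14987 genes. On those scales 0 and 2 passed, among 3 and 425 genes. At 2-fold or more 3 passed, with 0 on log2(TPM + 1) and 2 on log2(TPM + 0.1). The cause of the lower numbers on the TPM scales was not tested. Ptges, Ptgs1, Ptgs2 and Pla2g4a kept their direction under all 15 alternatives. Log2 differences that turned positive under total counts only were Ptges3 0.10, Hpgd 0.078 and Areg 0.057. On log2(TPM + 1) and log2(TPM + 0.1), in that order, they were Ptges2 0.15 and 0.25, Ptges3 0.25 and 0.29, Hpgd 0.047 and 0.18, Pnpla2 0.047 and 0.018, Abcc4 0.022 and 0.018, Mgst3 0.052 and 0.059, Fos 0.11 and 0.14, and Areg 0.22 and 0.25. TPM moved the median of all genes to 0.12 and 0.30. Leaving out samples moved Ptgr1 between -0.13 and 0.17.

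For Ad-hHIF1 versus Ad-GFP, 0 genes were called at 2-fold or more, with 138 without a count filter, 1 by DESeq2 and 2 in a single fit of all 9 samples. At any fold, 0 genes passed, with 384, 144 and 7 in those fits. By DESeq2, 1 prostaglandin gene was among the 144, Ptges, at a log2 fold change of 0.37. Ptgs2 turned to 0.030 and 0.036 on the TPM scales. Leaving out samples moved Ptgs1 between -0.050 and 0.15 and Ptges2 between -0.020 and 0.15.

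For Ad-hHIF2 versus Ad-hHIF1, 951 genes were called at 2-fold or more, with 95 and 397 on the TPM scales and 585 to 1160 when samples were left out, the lowest being without Ad-hHIF2 replicate 1 (585) and replicate 3 (629). At any fold, 6 of the 9 tested prostaglandin genes passed, among 4008 of 15556 genes. On the TPM scales 1 and 3 passed, among 151 and 429 genes. At 2-fold or more 2 passed, with 1 on log2(TPM + 1). Ptgr1 turned to 0.025 and 0.0545 on the TPM scales. Total counts moved the median of all genes to 0.17 and the share of higher calls from 39.5% to 52.7%.

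Replicate numbers were checked for pairing by the correlation of deviations from group means. Same-numbered samples of Ad-hHIF2 and Ad-GFP correlated at 0.0822 to 0.250, those of Ad-hHIF1 and Ad-GFP at -0.147 to 0.184 and those of the HIFs at -0.272 to -0.105, so the numbers were not taken to pair the samples. With the replicate block, 437 genes were called higher and 599 lower at 2-fold or more in Ad-hHIF2 versus Ad-GFP, in place of 435 and 574. At any fold, 5 prostaglandin genes passed there, among 4631 of 14987 genes, and 5 between the HIFs, among 3638 of 15556, where Ptges2 was lost.

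Depth limits Ptger2, and Hpgd with 34 to 92 counts per library. Ptgs1, Ptges3 and Ptger4 have partly shared reads.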
